A study of Homo sapiens with 16 samples.

Results

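The extracellular matrix genes described here are 40 genes for glycoproteins, proteoglycans and lysyl oxidase crosslinkers, with collagens and laminins left out. They were taken by gene symbol from the deposited count table, which lists 57500 genes. All 40 symbols were found, and 35 of the genes had enough counts to be among the 15566 genes tested. The set was not chosen on a measured value, but it was proposed after results of these data were known.

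Polyadenylated RNA was sequenced from MDA-MB-231, a human triple-negative breast cancer line with a mesenchymal-like profile, in 16 libraries. All cells carried a doxycycline-inducible short hairpin RNA, either a scrambled control (shScramble) or one against AKAP2 (shAKAP2), an A-kinase anchoring protein that the series title places in a focal adhesion scaffold. Either line was kept with or without doxycycline, which turns hairpin transcription on, and this gave 4 groups of 4 libraries. The libraries are labelled biological replicates with no word on separate cultures; p-values therefore measure just the spread between these libraries, which may be technical. Not given in the sources used here were the doxycycline dose and time, the hairpin sequence, and whether a line was a pool or a clone. There was 1 line per hairpin, so a difference between the lines without doxycycline cannot be told apart from a difference between 2 cell stocks.

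Matrix glycoproteins such as fibronectin, thrombospondins and tenascin C are secreted proteins that cells bind through integrins, while fibrillin, fibulins and their partners build microfibrils and elastic fibres. Lysyl oxidases oxidise lysine side chains of collagen and elastin, which starts their covalent crosslinking. Proteoglycans carry long sulfated sugar chains and either fill the matrix (decorin, versican, perlecan) or sit on the cell surface as co-receptors (syndecans, glypicans).

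Of the 40 genes, 8 hold the 7-letter word GAACACA in the longest annotated 3' untranslated region (3' UTR) of their coding transcripts, and AKAP2 holds it as well. The word is shown because 4 of the 6 tested genes that hold it fell in induced shAKAP2 cells, as given further on. It was singled out earlier from the same shAKAP2 contrast, so its counts below are a description and support nothing. Each window of 22 bases below is the sense strand, 5' to 3', from GENCODE 29 transcripts on GRCh38, with the word in capitals; the sense strand alone was searched.
AKAP2, chr9:110169244-110169265, plus strand: tctgcagtttatgaGAACACAt
TNC, chr9:115020355-115020376, minus strand: ttttaaataaagttGAACACAc
GPC6 first copy, chr13:94403871-94403892, plus strand: cgtctttaatatgaGAACACAa
GPC6 second copy, chr13:94405081-94405102, plus strand: atcacatttaagtaGAACACAt
LOX, chr5:122065659-122065680, minus strand: ttttatattatctaGAACACAg
DCN, chr12:91142647-91142668, minus strand: acacagattttccaGAACACAg
LUM, chr12:91103982-91104003, minus strand: ctatttcatcacaaGAACACAc
SPOCK1, chr5:136975382-136975403, minus strand: cttatctggaatgtGAACACAa

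Read back from the end of the word, the run of letters shared with the AKAP2 window was 12 long at the first GPC6 copy. It was 8 at the second GPC6 copy and in DCN, LOX and LUM, and 7, the word alone, in TNC and SPOCK1. Of the 14 letters before the word, 6 matched those of AKAP2 at either GPC6 copy. In DCN, LOX and TNC 5 matched, in SPOCK1 4 and in LUM 3. BGN and POSTN also hold the word but had too few counts to be tested.

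The libraries held 24482997 to 37472525 counts, and the 40 genes together took 0.303% to 0.465% of them. AKAP2 fell from 1.42 ± 0.0272 to 0.0403 ± 0.0583 CPM (SD, n = 4; CPM is the count scaled to the library's total) when the shAKAP2 hairpin was induced, from 168 to 4 summed counts (log2 fold change -5.06, adjusted p = 1.25e-06), which matches the labels. In shScramble cells it was at 1.17 ± 0.240 CPM without and 1.76 ± 0.685 CPM with the drug (log2 fold change 0.58, adjusted p = 0.706). The line's markers VIM, CD44, AXL, KRT18 and EGFR were present in every library, with 3940 to 5230 CPM in sum. Both shScramble replicate 1 libraries stood apart from their group: the root mean square log2 distance over all tested genes to the rest of the group was 0.565 and 0.615, against 0.384 to 0.469 for the other libraries. The counts of calls are given with and without them.

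The levels of the matrix genes were led by THBS1, thrombospondin 1 (ENSG00000137801; chromosome 15, 39581079 to 39599466, plus strand), an adhesive glycoprotein that can activate latent TGF-beta. It held 45.0% of the CPM summed over the 40 genes. Scaled by length, as CPM per kb of exon averaged over the 16 libraries, THBS1 stood at 178, the syndecan SDC4 at 81.0, the lysyl oxidase LOXL2 at 45.2, the follistatin-like glycoprotein FSTL1 at 43.9 and the fibulin-family gene EFEMP1 at 30.4. Of the 40 genes, 12 were over 10 CPM per kb, 20 were over 1 and 10 were under 0.1, among them DCN, FBLN5, NID1 and VCAN. The 5 genes that were not tested had few counts over all 16 libraries. POSTN (periostin) had 15, BGN (biglycan) 41, NID2 (nidogen 2) 63, FBN2 (fibrillin 2) 80 and FBLN2 (fibulin 2) 84. The 12 highest were 3 adhesive glycoproteins (THBS1, ECM1 and FN1), 3 lysyl oxidases (LOXL2, LOXL4 and LOX), 3 syndecans (SDC4, SDC1 and SDC2), FSTL1, EFEMP1 and AGRN.

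**Figure D1:**
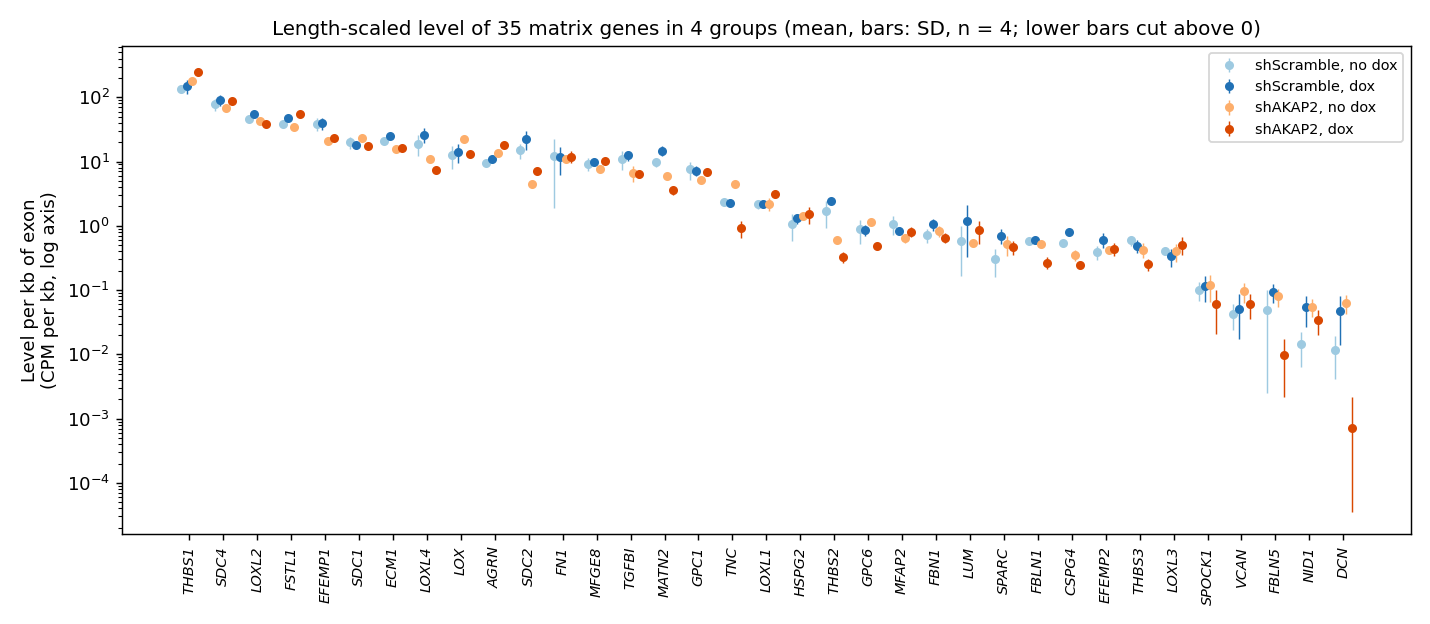
Length-scaled level (CPM per kb of exon, log axis) of the 35 tested matrix genes in each group, ordered by their mean over 16 libraries; points are means and bars SD, n = 4 libraries, with lower bars that would reach 0 cut just above it. THBS1 is at the top in each group and DCN in induced shAKAP2 cells is the lowest point.

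In shAKAP2 cells, doxycycline induces the hairpin against AKAP2, and the matrix genes were compared with and without it. Of the 35 matrix genes, 17 were called at an adjusted p under 0.05, 6 higher and 11 lower, against 28.3% of all genes tested (13.1% higher and 15.2% lower). Called changes of at least 2-fold were seen in 4 of the 35 (11.4%), all falls (TNC, GPC6, DCN and FBLN5). Over all genes these were 4.41% for changes and 3.12% for falls of that size. The median log2 fold change was -0.13 over the 35 genes and 0.00 over all genes. In 20 of the 35 the libraries with and without doxycycline did not overlap, 7 above and 13 below, against 36.5% of all genes (18.4% above and 18.1% below). Leaving both shScramble replicate 1 libraries out of the shared fit, with all 8 shAKAP2 libraries kept, gave 9 higher and 14 lower, against 39.8% of all genes. The genes added were FBN1, LOXL2 and LOXL4 among the lower and LUM, SDC4 and GPC1 among the higher. In such bulk samples, fewer cells of a kind and less RNA per cell cannot be told apart.

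**Figure D2:**
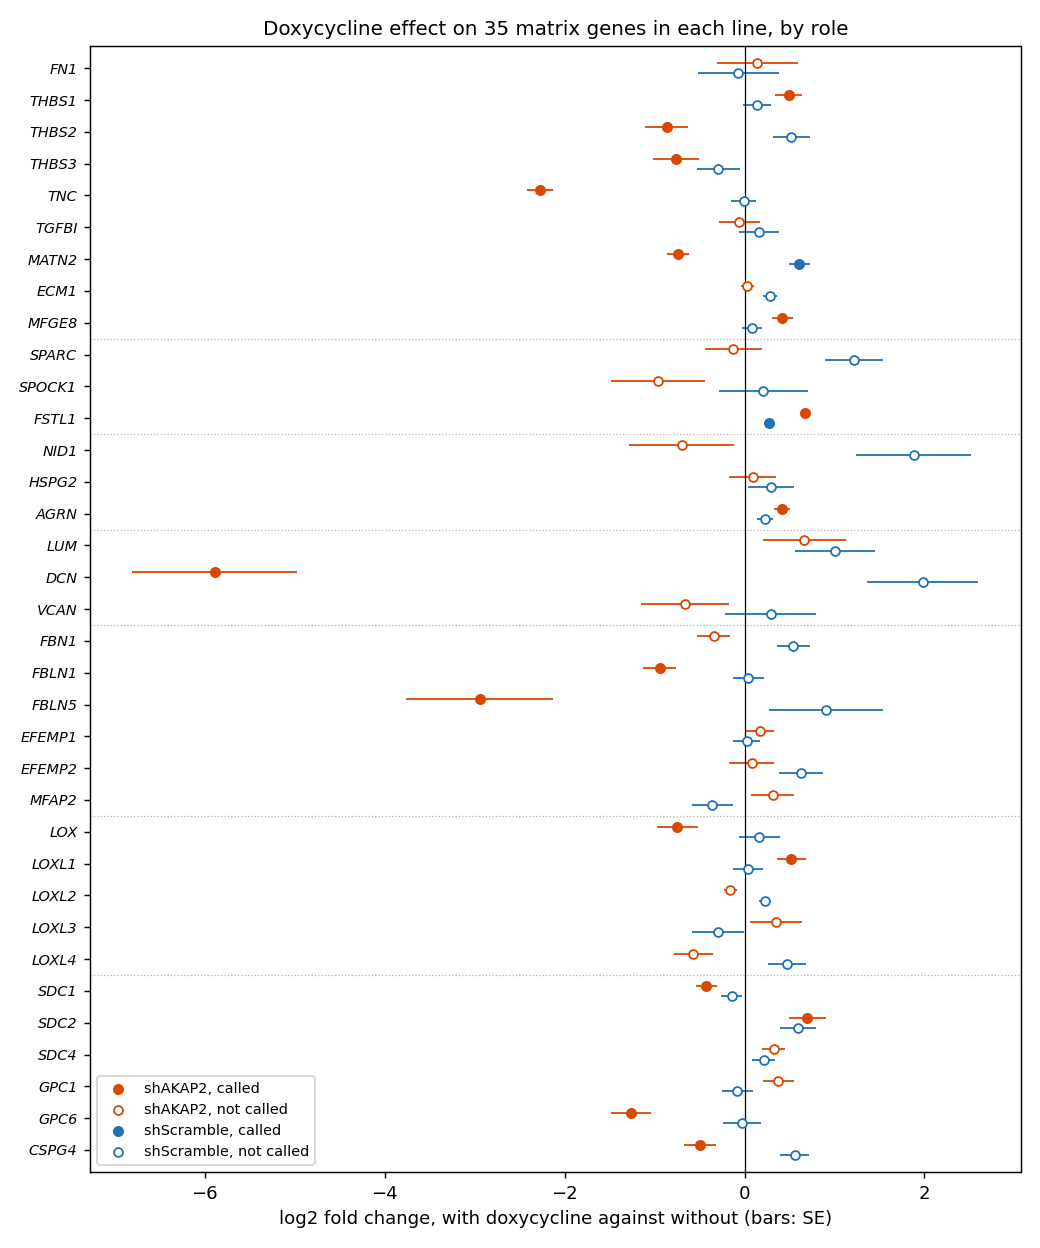
Log2 fold change of the 35 tested matrix genes with against without doxycycline in shAKAP2 (orange) and shScramble cells (blue), in order of role with dotted lines between roles; bars are SE and filled points passed the test at an adjusted p under 0.05. DCN, FBLN5 and TNC lie farthest to the left in shAKAP2 cells, and MATN2 is filled on opposite sides of 0 in the 2 lines.

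Among 9 adhesive glycoproteins, 2 rose and 4 fell, the same with and without both shScramble replicate 1 libraries. This count and those of the other roles below stand beside 13.1% of all genes higher and 15.2% lower. Without both shScramble replicate 1 libraries they stand beside 39.8% of all genes called. TNC, tenascin C (ENSG00000041982; chromosome 9, 115019578 to 115118257, minus strand), a matricellular glycoprotein of tissue repair and tumour stroma, fell the most in its group. Its 4 libraries read 43.6, 42.1, 42.3 and 42.8 CPM without and 12.8, 7.15, 7.52 and 7.91 CPM with doxycycline, in replicate order as in all such lists below. Every library with doxycycline was below every one without it, replicate 1 was the highest of the treated libraries, and the mean fell 4.85-fold (log2 fold change -2.28, SE 0.144, adjusted p = 2.65e-10).

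THBS2, thrombospondin 2 (ENSG00000186340; chromosome 6, 169215780 to 169254044, minus strand), an antiangiogenic relative of THBS1, was at 3.53, 4.07, 3.73 and 3.93 CPM without and 1.77, 2.35, 2.48 and 1.76 CPM with doxycycline. The groups did not overlap, and the mean fell 1.82-fold (log2 fold change -0.87, SE 0.240, adjusted p = 0.00989), although limma-voom did not call it (adjusted p = 0.0835). THBS3, thrombospondin 3 (ENSG00000169231), read 1.63, 1.5, 2.59 and 2.18 CPM without and 1.32, 0.916, 1.43 and 0.988 CPM with doxycycline. These ranges came close without overlap, at a difference of -0.77 (log2, SE 0.257, adjusted p = 0.0305). The THBS3 call was lost without untreated replicate 3 (adjusted p = 0.11) or 4 (0.0763), without treated replicate 2 (0.0914) or 4 (0.0795), with limma-voom (0.0566) and with no low-count filter (0.0762), and THBS3 shares 22.2% of its exonic bases with AC234582.1 and 3.16% with MTX1, both on the opposite strand. Over the 16 libraries AC234582.1 had 93 counts and MTX1 7537, against 956 for THBS3. MATN2, matrilin 2 (ENSG00000132561), a filament-forming adaptor of the matrix, was at 41.7, 41.6, 37.9 and 43.7 CPM without and 20.6, 23.9, 25.2 and 28.8 CPM with doxycycline. All treated MATN2 libraries were below all untreated ones, a 1.67-fold fall (log2 fold change -0.74, SE 0.122, adjusted p = 0.000106).

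THBS1 moved the other way from its paralogs. It read 1712, 1636, 1604 and 1556 CPM without and 2729, 2282, 2132 and 2005 CPM with doxycycline. The groups did not overlap and the mean rose 1.41-fold (log2 fold change 0.49, SE 0.152, adjusted p = 0.024). That call was lost without treated replicate 1, the highest library (adjusted p = 0.0733), without untreated replicate 3 (0.0514) or 4 (0.0595), and with no low-count filter (0.0929). Summed over the 40 genes, the level was 3389 ± 116 CPM in untreated and 4223 ± 323 CPM in treated libraries (SD, n = 4), and 1762 ± 67.1 and 1936 ± 34.3 CPM once THBS1 was left out. Within that remainder FSTL1 went from 302 ± 12.1 to 481 ± 21.7 CPM, about as much as the whole remainder. MFGE8, lactadherin, which bridges phosphatidylserine and integrins, rose from 52.8 ± 2.96 to 70.7 ± 2.80 CPM (log2 fold change 0.42, SE 0.115, adjusted p = 0.00899). The other 3 were not called. FN1, fibronectin, was at 187 ± 13.3 and 206 ± 42.4 CPM (adjusted p = 0.855), TGFBI, an integrin ligand induced by TGF-beta, at 52.2 ± 14.2 and 50.0 ± 6.87 CPM (adjusted p = 0.879), and ECM1 at 53.4 ± 3.26 and 54.6 ± 4.14 CPM (adjusted p = 0.799).

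Of the matricellular SPARC family and follistatin-like genes, 1 of 3 passed the test, with and without both shScramble replicate 1 libraries. FSTL1 (ENSG00000163430; chromosome 3, 120392293 to 120451253, minus strand), a secreted glycoprotein related to SPARC, was at 311, 314, 293 and 291 CPM without and 451, 478, 496 and 498 CPM with doxycycline. The treated libraries all lay above the untreated ones, and the mean rose 1.59-fold (log2 fold change 0.67, SE 0.0570, adjusted p = 1.91e-08). SPARC, a collagen-binding glycoprotein, read 1.59, 3.61, 2.36 and 2.35 CPM without and 1.73, 1.80, 2.67 and 2.86 CPM with doxycycline, with overlapping groups and an adjusted p of 0.813. SPOCK1 (testican 1) was low at 0.733 ± 0.322 and 0.373 ± 0.245 CPM, and its log2 difference of -0.96 (SE 0.520) did not pass (adjusted p = 0.183).

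In basement membranes, AGRN (agrin, a heparan sulfate proteoglycan) was at 154, 149.6, 132 and 142 CPM without and 203, 182, 186 and 199.9 CPM with doxycycline. No treated AGRN library reached down to an untreated one, and the mean rose 1.33-fold (log2 fold change 0.42, SE 0.0886, adjusted p = 0.00128). HSPG2 (perlecan, 25.5 ± 3.18 and 27.2 ± 8.14 CPM; adjusted p = 0.838) and NID1 (nidogen 1, 39 and 21 summed counts; adjusted p = 0.412) were not called.

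DCN, decorin (ENSG00000011465; chromosome 12, 91140484 to 91183123, minus strand), a small leucine-rich proteoglycan that binds collagen fibrils, was nearly lost from the counts of induced shAKAP2 cells. It had 15, 30, 21 and 29 counts in the untreated libraries and 0, 0, 0 and 1 in the treated ones. That is 1 count against 95, or 1.18% of the untreated level per sequenced read (95% exact interval 0.0296% to 6.74%, counting error only). The fitted log2 fold change of -5.89 (SE 0.917, adjusted p = 5.65e-05) depends on the prior count, and was -4.98 with limma-voom and -7.56 without treated replicate 4, which holds the only count. LUM, lumican, the related proteoglycan gene 28.7 kb from DCN on chromosome 12, was not called, at 1.80, 1.46, 1.48 and 1.77 CPM without and 1.81, 1.65, 3.80 and 3.11 CPM with doxycycline. Of the treated LUM libraries 1 lay within the untreated range and 3 above it, replicate 1 by little (log2 0.67, SE 0.458, adjusted p = 0.307, and 0.0455 without both shScramble replicate 1 libraries). VCAN (versican, a large chondroitin sulfate proteoglycan) was low at 1.43 ± 0.492 and 0.901 ± 0.371 CPM and was not called (adjusted p = 0.34).

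Among 6 microfibril and elastic fibre genes, 2 fell and none rose. Without both shScramble replicate 1 libraries 3 fell and none rose, with FBN1 added (adjusted p = 0.0491). FBLN1, fibulin 1 (ENSG00000077942; chromosome 22, 45502238 to 45601135, plus strand), a component of basement membranes and elastic fibres, read 3.77, 3.65, 4.38 and 3.19 CPM without and 2.06, 1.47, 1.80 and 2.45 CPM with doxycycline. Its groups did not overlap, with a 1.92-fold fall (log2 fold change -0.94, SE 0.181, adjusted p = 0.000508). FBLN5, fibulin 5, which organises elastic fibres, had 9, 15, 10 and 12 counts without and 2, 2, 1 and 0 with doxycycline, 12.2% of the untreated level (95% exact interval 3.78% to 30.6%, counting error only; adjusted p = 0.00982). The other 4 were not called. FBN1 (fibrillin 1, the microfibril backbone) was at 13.3 ± 2.41 and 10.5 ± 1.75 CPM (adjusted p = 0.171), EFEMP1 (fibulin 3) at 81.4 ± 6.29 and 91.8 ± 10.1 CPM (0.442), EFEMP2 (fibulin 4) at 2.24 ± 0.147 and 2.37 ± 0.563 CPM (0.851) and MFAP2, a microfibril protein, at 1.90 ± 0.301 and 2.37 ± 0.384 CPM (0.359).

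Of 5 lysyl oxidases 1 fell and 1 rose, and without both shScramble replicate 1 libraries 3 fell and 1 rose. LOX (ENSG00000113083; chromosome 5, 122063195 to 122078360, minus strand), the founding crosslinking enzyme of the family, was at 116, 128, 118 and 133 CPM without and 68.6, 76.3, 70.6 and 79.0 CPM with doxycycline. The treated LOX libraries were all below the untreated ones, a 1.68-fold fall (log2 fold change -0.75, SE 0.229, adjusted p = 0.024). LOXL1, a lysyl oxidase needed for elastin, read 10.5, 7.91, 6.93 and 6.47 CPM without and 11.3, 13.2, 12.1 and 9.08 CPM with doxycycline. Those ranges overlapped, since untreated replicate 1 was above treated replicate 4, while the mean rose 1.44-fold (log2 fold change 0.52, SE 0.164, adjusted p = 0.0215). Both calls sat near the threshold. That of LOX was lost without untreated replicate 2 (adjusted p = 0.05003) or 4 (0.0554), without treated replicate 1 (0.0579) or 3 (0.0573) and with no low-count filter (0.0643). That of LOXL1 was lost without untreated replicate 3 (0.0688) or 4 (0.0814) or treated replicate 2 (0.0786) or 3 (0.0571). LOXL1 shares 9.21% of its exonic bases with the antisense gene LOXL1-AS1, which had 5370 counts over the 16 libraries against 4043 for LOXL1. LOXL2 was lower in each treated library, at 248, 254, 227 and 238 CPM without and 220.2, 222, 206 and 219.9 CPM with doxycycline, and was not called (log2 -0.16, SE 0.0672, adjusted p = 0.0908), although it was called within the shAKAP2 line alone (0.00507) and without both shScramble replicate 1 libraries (0.00685). LOXL4 read 37.9, 37.9, 36.8 and 47.8 CPM without and 28, 24.9, 26.4 and 28.8 CPM with doxycycline, again without overlap and without a call (log2 -0.57, adjusted p = 0.0604). It was called at about the same fold in 6 alternatives, among them the shAKAP2 line alone (1.26e-06), without both shScramble replicate 1 libraries (7.53e-05) and with the replicate block (0.0162). LOXL3 was not called (adjusted p = 0.408).

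Of 6 cell surface proteoglycans, 1 rose and 3 fell, and without both shScramble replicate 1 libraries 3 rose and 3 fell. GPC6, glypican 6 (ENSG00000183098; chromosome 13, 93226842 to 94407401, plus strand), a membrane-anchored heparan sulfate proteoglycan, was at 8.11, 8.03, 6.13 and 7.56 CPM without and 3.01, 3.52, 3.08 and 2.82 CPM with doxycycline. The treated libraries were all below the untreated ones, a 2.40-fold fall (log2 fold change -1.26, SE 0.221, adjusted p = 0.000193). SDC2, syndecan 2 (ENSG00000169439), a transmembrane heparan sulfate proteoglycan, read 17.6, 18.2, 21 and 23.2 CPM without and 27.2, 32.4, 33.9 and 36.3 CPM with doxycycline. All treated SDC2 libraries were above the untreated ones, a 1.62-fold rise (log2 fold change 0.70, SE 0.206, adjusted p = 0.0189) that was lost without untreated replicate 1 (adjusted p = 0.0547) or 2 (0.0507) and with no low-count filter (0.0672).

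SDC1, the epithelial syndecan, fell from 84.7 ± 4.85 to 63.0 ± 4.76 CPM (log2 fold change -0.43, SE 0.118, adjusted p = 0.00958). CSPG4 (NG2), a chondroitin sulfate proteoglycan of the cell surface, read 3.77, 2.57, 2.59 and 2.70 CPM without and 2.22, 1.83, 2.07 and 2.12 CPM with doxycycline, with no overlap (log2 -0.50, SE 0.176, adjusted p = 0.0398). Without untreated replicate 1, its highest library, the CSPG4 difference was -0.35 (adjusted p = 0.166), and the call was also lost without untreated replicate 4 (0.0514) or treated replicates 2 (0.103), 3 (0.0735) or 4 (0.0627), within the shAKAP2 line alone (0.0802), with limma-voom (0.0938), with upper-quartile factors (0.0567) and with no low-count filter (0.141). SDC4, the syndecan of focal adhesions, was at 175, 178, 181 and 183 CPM without and 219.9, 219, 233 and 227 CPM with doxycycline. GPC1, glypican 1, was at 36.3, 33.4, 31.1 and 35.3 CPM without and 42.4, 48.0, 46.3 and 40.2 CPM with doxycycline. Each treated library of these 2 genes exceeded every untreated one, but neither gene was called (adjusted p = 0.0676 and 0.115). At about the same fold, SDC4 was called in 7 alternatives and GPC1 in 4, among them the shAKAP2 line alone (2.79e-07 and 0.000104), without both shScramble replicate 1 libraries (1.09e-06 and 0.00616) and with the replicate block (0.0273 and 0.0454).

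**Figure D3:**
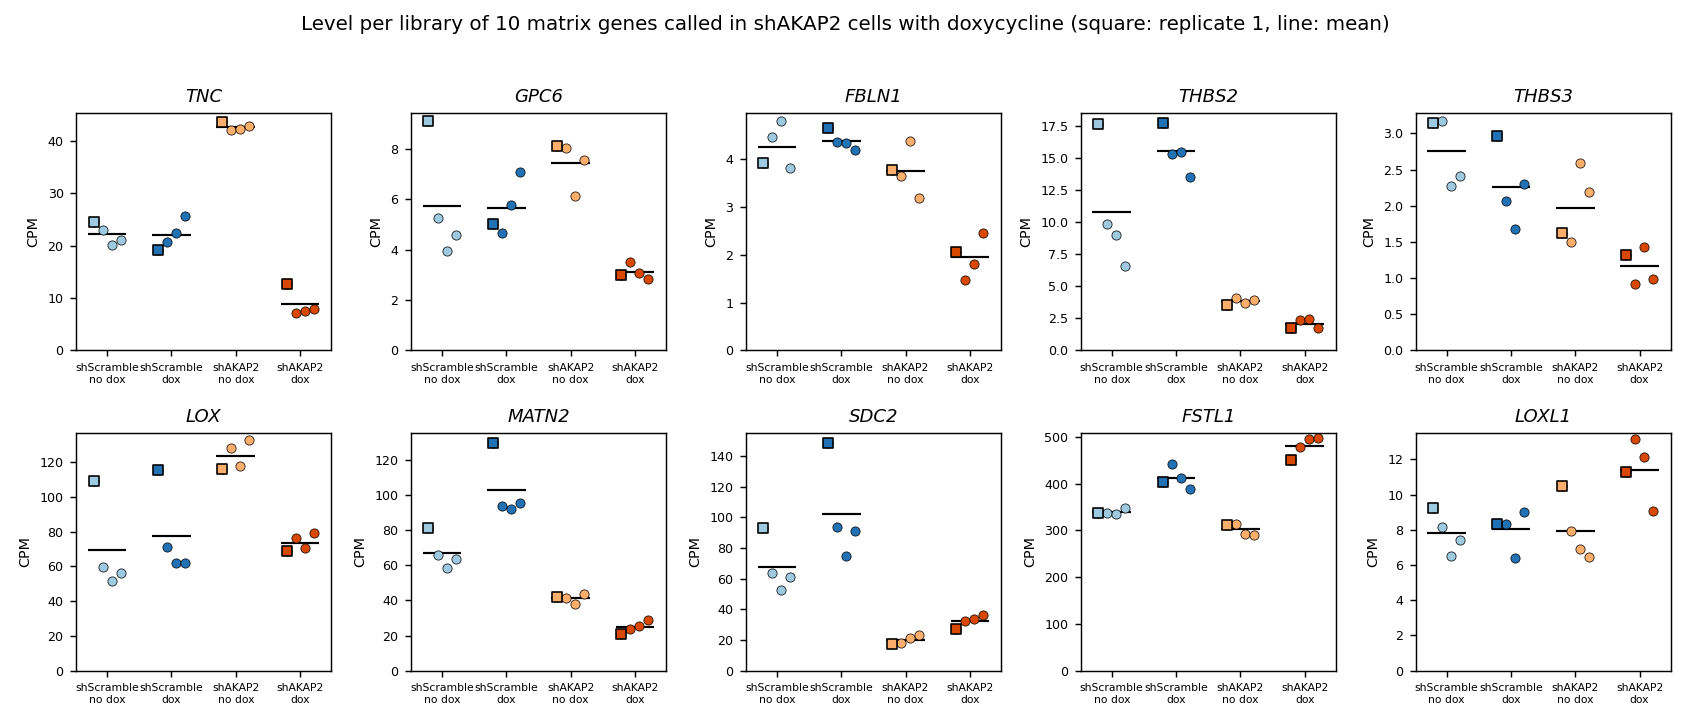
CPM of each library for the 10 matrix genes with the largest called change in shAKAP2 cells among those with a mean of at least 1 CPM, by group; lines are group means, n = 4, and squares mark replicate 1. For TNC the 4 induced shAKAP2 libraries, at 7.15 to 12.8 CPM, lie below all other libraries, and for LOX, THBS2, MATN2 and SDC2 the shScramble squares lie above the circles of their group.

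The shScramble line was then compared with and without doxycycline, as the control for the drug and the induction itself. There 2 of 35 matrix genes were called, both higher, against 1.08% of all genes tested (0.559% higher). MATN2 was at 81.1, 66.1, 58.2 and 63.7 CPM without and 129.9, 94.0, 91.8 and 95.5 CPM with doxycycline. The treated MATN2 libraries were above all untreated ones, a 1.53-fold rise (log2 fold change 0.61, SE 0.118, adjusted p = 0.00922), in contrast to its fall in shAKAP2 cells. FSTL1 read 336, 338, 335 and 348 CPM without and 403, 442, 411 and 388 CPM with doxycycline. No treated FSTL1 library overlapped an untreated one, and the mean rose 1.21-fold (log2 fold change 0.28, SE 0.0568, adjusted p = 0.015).

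The FSTL1 call was lost without untreated replicate 2 (adjusted p = 0.0593) or treated replicate 2 (0.101) and with no low-count filter (0.061), and neither gene was called when only the shScramble libraries were fitted (adjusted p = 0.128 for MATN2 and 0.26 for FSTL1). Without overlap between groups were 5 of the 35 genes, all above (MATN2, FSTL1, ECM1, SPARC and CSPG4), against 4.43% of all genes (2.29% above). The median log2 fold change of the 35 genes was 0.23, against 0.00 over all genes, and 27 of the 35 were positive, against 49.9% of all genes. SPARC was at 1.26, 0.627, 1.69 and 2.20 CPM without and 4.6, 3.19, 3.13 and 2.54 CPM with doxycycline, and was not called (log2 1.22, SE 0.321, adjusted p = 0.0844). DCN had 10, 4, 1 and 4 counts without and 5, 34, 9 and 27 with doxycycline, overlapping and not called (adjusted p = 0.179).

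The comparison in shScramble cells changed with replicate 1. For 13 of the 35 genes it was the highest library of its group both without and with doxycycline (FN1, THBS2, TGFBI, MATN2, MFGE8, LUM, EFEMP1, LOX, LOXL4, SDC2, SDC4, GPC1 and CSPG4), and for 4 it was the lowest in both (THBS1, VCAN, LOXL3 and SDC1). FN1 read 475, 153, 99.4 and 115 CPM without and 339, 148, 136 and 182 CPM with doxycycline, and LOX 109, 59.5, 51.6 and 56.5 CPM without and 115, 70.9, 62.2 and 61.9 CPM with doxycycline. In both genes replicate 1 stood well above the other 3 libraries of each group. The median coefficient of variation of the 35 genes was 25.9% and 20.4% in shScramble cells without and with doxycycline, and 12.3% and 15.2% in shAKAP2 cells. With both replicate 1 libraries left out, 12 matrix genes were called, all higher, against 6.45% of all genes: AGRN, ECM1, FSTL1, THBS2, LOXL2, SDC2, MATN2, LOXL4, LUM, DCN, FBN1 and SDC4. With only untreated replicate 1 left out 10 were called, and with only treated replicate 1 left out 4 were. Leaving out replicate 2, untreated or treated, left 1. The share of all genes called also moved, from 1.08% with all libraries to 6.45% without both replicate 1 libraries. Shares for the fits without 1 library are not given here, so those counts do not set the matrix genes apart from all genes.

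Some genes in marker lists of other cell types also differed with doxycycline. Their calls stand beside 0.559% of all genes higher in shScramble cells, and 13.1% higher and 15.2% lower in shAKAP2 cells. In shScramble cells the summed level of 9 fibroblast genes was 27.6 to 44.9 CPM without and 52.0 to 72.6 CPM with doxycycline, with DPT at 0 in all libraries and 2 of 6 tested genes called higher (PI16 and PDGFRB). That of 10 blood cell genes was 83.7 to 103 and 131 to 182 CPM, with CD3E among those at 0 and 5 of 8 tested genes called higher. Most of this sum was LAPTM5, with a mean of 79.95 CPM without and 144 CPM with doxycycline. The means of PTPRC, CD53, TYROBP and FCER1G were low, at most 1.49 CPM in either shScramble group, but all 4 rose there with doxycycline. PTPRC went from 0.232 to 1.49 CPM, CD53 from 0.046 to 0.928, TYROBP from 0.0269 to 0.327 and FCER1G from 0.146 to 0.877. Each of the 4 was lowest in untreated shScramble cells. In shAKAP2 cells their means were 0.335 to 1.497 CPM without and 0.191 to 0.924 CPM with doxycycline. In shAKAP2 cells the fibroblast sum was 23.0 to 34.4 CPM without and 18.9 to 22.1 CPM with doxycycline, with 3 of 6 called lower (COL3A1, COL1A2 and PI16), and the blood cell sum was 73.6 to 84.1 and 58.0 to 83.4 CPM, with 1 of 8 called higher and 1 lower. The means of COL1A1 in shAKAP2 cells (6.55 and 7.12 CPM) and of COL3A1 in shScramble cells (0.719 and 0.639 CPM) did not follow the fibroblast sum. The sparse genes PDGFRA and FAP followed it in both lines. PDGFRA was at 0.123 and 0.283 CPM in shScramble cells, and 0.308 and 0.0609 CPM in shAKAP2 cells. FAP was at 0.0863 and 0.190 CPM, and 0.309 and 0.0462 CPM. COL3A1 followed the sum in shAKAP2 cells (1.54 and 0.0937 CPM). Sums of 6 endothelial genes were 5.24 to 9.88 and 10.4 to 14 CPM in shScramble cells, and 4.30 to 5.84 and 3.33 to 8.40 CPM in shAKAP2 cells, with neither of the 2 tested genes called. Sums of 8 luminal epithelial genes were 666 to 893 and 749 to 1030 CPM in shScramble cells, with 0 of 5 tested genes called, and 726 to 760 and 918 to 1000 CPM in shAKAP2 cells, with 2 of 5 called higher (KRT8 and EPCAM). KRT8 and KRT19 made most of that sum in each group, with means of 723 and 216 CPM in treated shAKAP2 cells. ESR1 had 1 count and FOXA1 2 over all libraries. Mitochondrially encoded genes took 1.02% to 2.04% of the counts of induced shAKAP2 libraries and 1.86% to 3.62% of the others. The part of these differences in the matrix gene results was not tested.

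The difference between the doxycycline effects of both lines (the interaction term) asks which matrix genes responded differently in shAKAP2 cells. It was called for 14 of 35, 1 with a more positive and 13 with a more negative effect in shAKAP2 cells, against 18% of all genes (7.53% and 10.5%). Called and at least 2-fold were 10 of the 35 (28.6%), all negative, against 3.26% of all genes for negative differences of that size. Without both shScramble replicate 1 libraries 2 were positive and 14 negative, against 31% of all genes. The median over the 35 genes was -0.39, against 0.00 over all genes. In the marker lists above, the interaction was called negative for 4 of 6 tested fibroblast genes and positive for 0 (median -2.07). Of 8 blood cell genes 5 were negative and 1 positive (median -2.06). Of 2 endothelial and 5 luminal epithelial genes 0 were called. The part of these genes in the matrix gene results was not tested. TNC led the better expressed genes at -2.27 (log2, SE 0.197, adjusted p = 6.38e-08). In shScramble cells TNC read 24.6, 23.0, 20.1 and 21.1 CPM without and 19.2, 20.8, 22.5 and 25.8 CPM with doxycycline, with overlapping groups.

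For THBS2 and MATN2 the fall in shAKAP2 cells met a higher level in treated shScramble cells. THBS2 read 17.6, 9.85, 8.95 and 6.59 CPM without and 17.7, 15.3, 15.5 and 13.5 CPM with doxycycline in shScramble cells, where the groups overlapped through untreated replicate 1. Its interaction was -1.39 (SE 0.318, adjusted p = 0.00429), and that of MATN2 -1.35 (SE 0.169, adjusted p = 1.02e-05). GPC6 in shScramble cells was at 9.13, 5.28, 3.94 and 4.58 CPM without and 5.03, 4.65, 5.79 and 7.11 CPM with doxycycline, where the ranges overlapped. The GPC6 interaction was -1.24 (SE 0.306, adjusted p = 0.00752). CSPG4 in shScramble cells read 5.13, 4.43, 4.49 and 3.81 CPM without and 7.33, 6.29, 5.75 and 6.92 CPM with doxycycline. The treated CSPG4 libraries were above the untreated ones, the reverse of the shAKAP2 line, with an interaction of -1.05 (SE 0.240, adjusted p = 0.0041).

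SPARC was called at -1.34 (SE 0.450, adjusted p = 0.0433), though neither line alone passed. That call was lost in 12 of the 16 fits that left out 1 library (adjusted p 0.0508 to 0.11) and without both shScramble replicate 1 libraries (0.0589). NID1, with 10 and 38 counts in shScramble cells, was likewise called at -2.58 (adjusted p = 0.0448) and lost in 13 of those 16 fits (0.0525 to 0.0888), with the replicate block (0.0682), with limma-voom (0.0706) and with no low-count filter (0.189). Negative interactions were also called for DCN (-7.87), FBLN5 (-3.85), LOXL4 (-1.04), FBLN1 (-0.99), FBN1 (-0.89) and LOXL2 (-0.39). Of these, LOXL4, FBN1 and LOXL2 were called in neither line in the main fit. Their log2 differences were -0.57, -0.34 and -0.16 in shAKAP2 cells, and 0.47, 0.54 and 0.23 in shScramble cells. The DCN interaction was -9.54 without treated shAKAP2 replicate 4 and -6.88 with limma-voom, and that of FBLN5 was -4.64 without untreated shScramble replicate 2. The FBN1 call was lost without untreated shAKAP2 replicate 1 (adjusted p = 0.0502), and that of LOXL4 without untreated shAKAP2 replicate 4 (0.0526) and with no low-count filter (0.0759). FSTL1 was the positive one at 0.39 (SE 0.0803, adjusted p = 0.00157): it rose in both lines, and more in shAKAP2 cells. LOX did not pass (-0.91, adjusted p = 0.0668), but was called without untreated shScramble replicate 1 (-1.22, adjusted p = 0.00127), without both replicate 1 libraries of that line (-0.97, 1.58e-09), with DESeq2 (0.0389) and with the replicate block (0.0293).

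With doxycycline, the lines differed in 20 of 35 matrix genes, 4 higher and 16 lower in shAKAP2 cells, against 40.2% of all genes (18.7% and 21.5%). The groups did not overlap for 20 of the 35, against 37.8% of all genes (4 above and 16 below, against 18.2% and 19.6%). Without both shScramble replicate 1 libraries 6 were higher and 16 lower, against 44.1% of all genes. Called and at least 2-fold lower were 9 of the 35 (25.7%), against 7.38% of all genes. The median over the 35 genes was -0.57, against -0.01 over all genes. This comparison uses the same treated libraries as those above, so its values are not separate support for them. Of the marker lists, 1 of 6 tested fibroblast genes was higher and 4 lower in shAKAP2 cells. Among 8 blood cell genes 1 was higher and 2 lower, both of 2 endothelial genes were lower, and of 5 luminal epithelial genes 2 were higher and 2 lower.

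THBS2 was 7.39-fold lower in treated shAKAP2 than in treated shScramble cells (log2 fold change -2.89, SE 0.236, adjusted p = 8.73e-09), and MATN2 4.17-fold lower (log2 fold change -2.06, SE 0.124, adjusted p = 1.06e-10). LOXL4, a lysyl oxidase, read 131, 93.0, 75.7 and 83.3 CPM in treated shScramble cells against the 24.9 to 28.8 CPM of treated shAKAP2 cells. All shAKAP2 libraries were lower, by 3.54-fold (log2 fold change -1.82, SE 0.217, adjusted p = 8.26e-06). CSPG4 was 3.19-fold lower without overlap (log2 fold change -1.67, SE 0.173, adjusted p = 2.2e-07). SDC2 (-1.65), TNC (-1.33), FBLN1 (-1.17), TGFBI (-0.96), THBS3 (-0.95), GPC6 (-0.86), EFEMP1 (-0.76), FBN1 (-0.69), ECM1 (-0.62) and LOXL2 (-0.51) were lower on the log2 scale. So were the sparse genes DCN, with 1 count against 75 (1.48%, 95% exact interval 0.037% to 8.51%), and FBLN5, with 5 against 56 (9.92%, 3.1% to 24.6%). THBS1 (0.73), AGRN (0.70), LOXL1 (0.51) and FSTL1 (0.23) were higher, of which LOXL1 lost the call without treated shAKAP2 replicate 2 (adjusted p = 0.0667) or treated shScramble replicate 3 (0.0629).

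Without doxycycline, so with the hairpins not induced, the lines already differed in 16 of 35 matrix genes, 5 higher and 11 lower in shAKAP2 cells, against 18% of all genes (8.65% and 9.31%). The groups did not overlap for 14, 6 above and 8 below, against 25.5% of all genes (13.3% and 12.2%). Of the marker lists, 4 of 8 tested blood cell genes were called higher and 1 lower in shAKAP2 cells. Among 6 fibroblast genes 1 was higher and 1 lower, of 2 endothelial genes 0 were called, and of 5 luminal epithelial genes 1 was lower. SDC2 was at 93.1, 63.4, 52.7 and 60.8 CPM in shScramble and 17.6, 18.2, 21 and 23.2 CPM in shAKAP2 cells. Every shAKAP2 library was lower, by 3.38-fold (log2 fold change -1.76, SE 0.207, adjusted p = 5.12e-05). THBS2 was 2.83-fold lower (log2 fold change -1.5, SE 0.220, adjusted p = 0.000128), and TNC 1.92-fold higher (log2 fold change 0.94, SE 0.135, adjusted p = 9.58e-05), neither with overlap. TNC was thus above its shScramble level without doxycycline and below it with doxycycline, while SDC2 was below it in both.

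EFEMP1 (ENSG00000115380; chromosome 2, 55865967 to 55924139, minus strand) read 203, 150.2, 117 and 141 CPM in shScramble and 84.7, 84.7, 72.0 and 84.3 CPM in shAKAP2 cells. The shAKAP2 libraries were all lower, by 1.88-fold (log2 fold change -0.91, SE 0.153, adjusted p = 0.000849). AGRN (log2 0.51), LOX (0.84), DCN (2.37, from 19 and 95 counts) and NID1 (1.91, from 10 and 39 counts) were the other higher genes. Lower were LOXL4 (-0.78), TGFBI (-0.74), MFAP2 (-0.72), MATN2 (-0.71), CSPG4 (-0.62), GPC1 (-0.54), ECM1 (-0.37) and FSTL1 (-0.17). Of these 16 calls, 8 held under every alternative (THBS2, TNC, MATN2, ECM1, AGRN, DCN, EFEMP1 and SDC2).

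The other 8 calls were lost in some fits that left out 1 of the 16 libraries: FSTL1 and NID1 in 11 each (highest adjusted p 0.114 and 0.11), GPC1 in 6 (0.111), MFAP2 in 5 (0.153), TGFBI and LOX in 4 each (0.11 and 0.0577), LOXL4 in 3 (0.0561) and CSPG4 in 1 (0.0527). The 16 calls fell to 9 without untreated shAKAP2 replicate 2, and to 10 without untreated shAKAP2 replicate 3 or untreated shScramble replicate 2. Without both shScramble replicate 1 libraries, 8 genes were called higher and 10 lower, against 26.7% of all genes, with FN1 higher in shAKAP2 cells (log2 0.62, adjusted p = 0.0335) instead of -0.17 (adjusted p = 0.835). The calls of TGFBI (-0.50, adjusted p = 0.1001) and NID1 (1.73, 0.0831) were lost there.

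**Figure D4:**
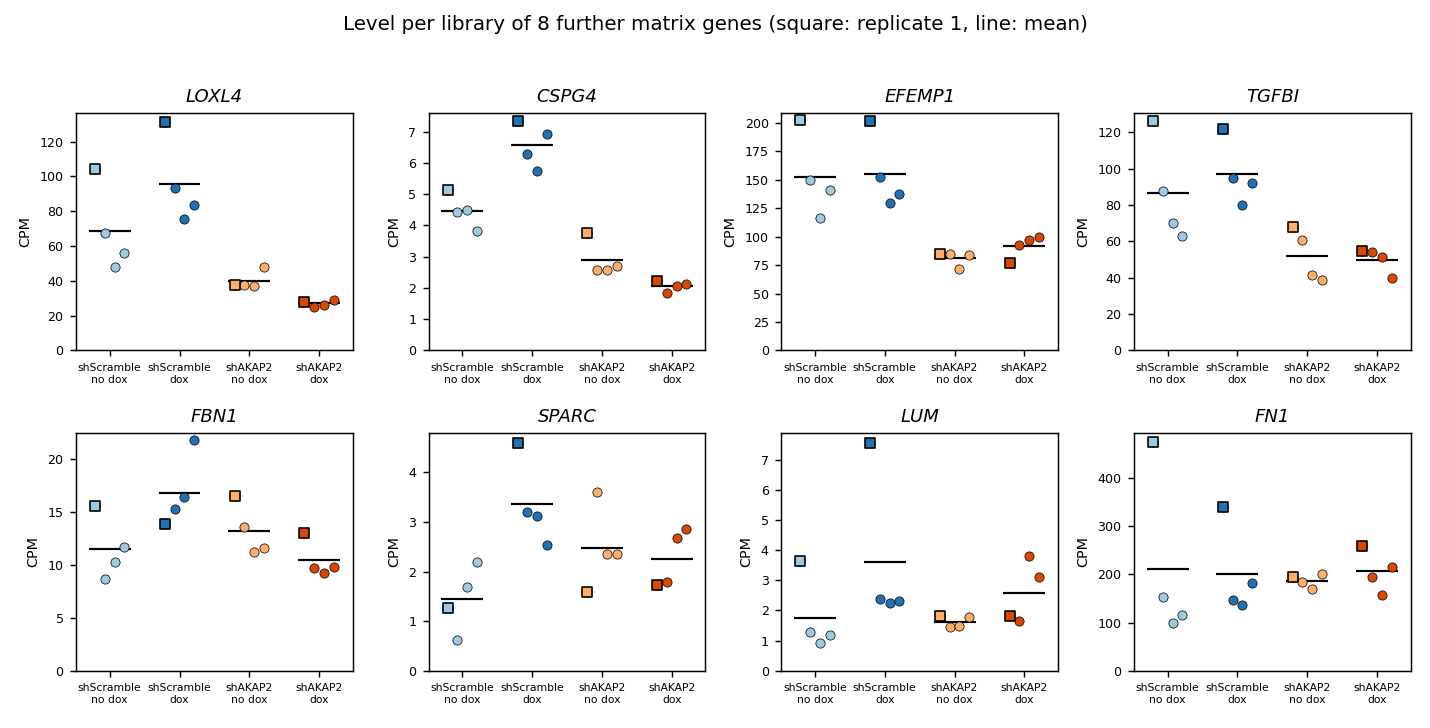
CPM of each library for 8 further matrix genes by group; lines are group means, n = 4, and squares mark replicate 1. LOXL4, CSPG4, EFEMP1 and TGFBI are lower in shAKAP2 cells, and for LUM and FN1 the shScramble squares stand above the other libraries of their group.

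Read against the word GAACACA, shown above, the 35 tested genes divided as follows in shAKAP2 cells. Of the 6 that hold it, 4 fell (TNC, GPC6, LOX and DCN), none rose and LUM and SPOCK1 were not called, with a median log2 fold change of -1.11. Of the 29 without it, 7 fell and 6 rose, with a median of 0.03. Over all tested genes with an annotated 3' UTR, 40.9% of the 1635 with the word fell and 6.48% rose, and 13.4% of the 11189 without it fell and 16.2% rose. The word stood in 17.1% of the 35 genes and in 12.7% of all 12824. In shScramble cells none of the 6 was called with doxycycline, against 0.856% higher and 0.612% lower of the 1635 genes with the word. Without both shScramble replicate 1 libraries DCN and LUM were called higher there, against 6.45% of all genes called. Between the untreated lines, 3 of the 6 were higher in shAKAP2 cells (TNC, DCN and LOX) and none was lower. The median over the 6 was 0.60, and of the 1635 genes with the word 12.8% were higher and 8.2% lower. These 3 falls thus began above the shScramble level. LOX fell from 124 to 73.6 CPM, near its shScramble means of 69.2 and 77.6 CPM without and with doxycycline. Between the treated lines TNC, GPC6 and DCN were lower in shAKAP2 cells, and LOX was not called (log2 -0.07). Longer 3' UTRs hold a given word more often, and their median length was 1816 bases in all lower genes, 1364 in higher ones and 1250 in those not called. In the matrix genes it was 1579 in the 11 lower, 1685 in the 6 higher and 1200 in the 18 not called. The 6 tested genes with the word had longer 3' UTRs than the median of 1231 bases over the 35. These were 5574 bases in DCN, 4184 in GPC6, 3548 in LOX, 3356 in SPOCK1, 1579 in TNC and 1536 in LUM. The part of length in the falls was not tested. The falls of FBLN1, FBLN5, THBS2, THBS3, MATN2, SDC1 and CSPG4 came in genes whose annotated 3' UTR does not hold these letters.

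**Figure D5:**
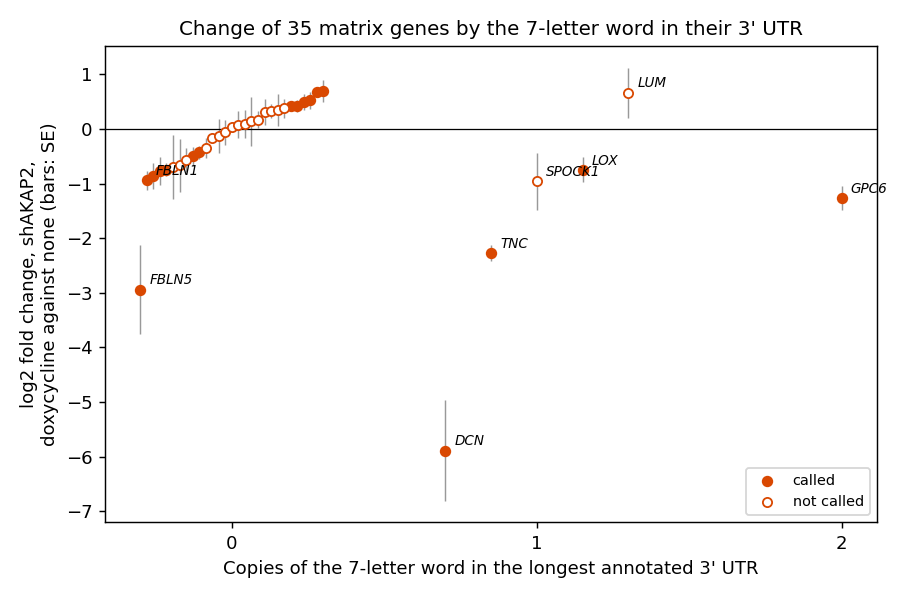
Log2 fold change in shAKAP2 cells with against without doxycycline of the 35 tested matrix genes, by copies of the 7-letter word in the longest annotated 3' UTR (points at each copy number are spread sideways for sight); bars are SE and filled points passed the test. Of the 6 genes with the word, LUM lies above 0, and those without it spread to both sides of 0 with FBLN5 lowest.

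Genes that act on or with these matrix proteins were counted from lists written from general knowledge. Of 37 tested genes of glycosaminoglycan chain synthesis and sulfation, which build the sugar chains of proteoglycans, 2 rose and 12 fell in shAKAP2 cells with doxycycline, with a median log2 fold change of -0.06, against 13.1% of all genes higher and 15.2% lower. GLCE, the epimerase that makes iduronic acid in heparan sulfate, fell (log2 -0.89, SE 0.0669, adjusted p = 3.49e-09), as did CSGALNACT2, which starts chondroitin sulfate chains (log2 -0.49, SE 0.0647, adjusted p = 8.11e-06). CHPF, a chondroitin polymerising factor, rose (log2 0.81, SE 0.112, adjusted p = 1.34e-05). In shScramble cells, where 1.08% of all genes were called, 2 of the 37 rose and none fell, HPSE (heparanase; log2 0.48, SE 0.0816, adjusted p = 0.0031) and PAPSS2, which makes the sulfate donor (log2 0.32, SE 0.0705, adjusted p = 0.0257). The interaction was positive for 2 and negative for 11, against 7.53% and 10.5% of all genes.

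Of 22 collagen and elastin modifying and crosslinking enzymes outside the lysyl oxidases, 4 rose and 7 fell in shAKAP2 cells, with a median of -0.20, against the same 13.1% and 15.2% of all genes. PXDN, peroxidasin, which crosslinks collagen IV, fell (log2 -1.67, SE 0.125, adjusted p = 3.62e-09), and so did P4HB, a subunit of prolyl 4-hydroxylase (log2 -0.97, SE 0.0856, adjusted p = 3.15e-08), and CRTAP, of the prolyl 3-hydroxylation complex (log2 -0.59, SE 0.0537, adjusted p = 5.28e-08). In shScramble cells 0 of the 22 were called, which is near the 1.08% of all genes. Among 27 receptors for matrix glycoproteins, 1 rose and 8 fell, with a median of -0.17, again against 13.1% of all genes higher and 15.2% lower. The integrin subunits ITGA2 (log2 -0.69, SE 0.117, adjusted p = 0.000162), ITGB4 (log2 -0.61, SE 0.116, adjusted p = 0.000485) and ITGA5, the fibronectin receptor chain (log2 -0.42, SE 0.0871, adjusted p = 0.00101), were lower with doxycycline. In shScramble cells 0 of the 27 were called, also near the share of all genes.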

How the data were processed

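Polyadenylated RNA of 16 libraries was analysed. Per the labels' protocols, oligo(dT) selection and the NEBNext Ultra II kit were used. The submitters' processing notes list build GRCh38, featureCounts, Subread 1.5.2 and STAR 2.5.2b. Annotation and strand setting: not given in the sources used here, so reads of overlapping antisense genes cannot be assigned to either. The authors deposited raw counts per gene, whole numbers of reads, and each column was matched to its library by its name in the labels.

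Counts were analysed with edgeR 4.0.16 in R 4.3.3: filterByExpr by group (15566 genes kept), TMM scaling, and a robust quasi-likelihood fit of 1 mean per group to all 16 libraries, leaving 12 residual degrees of freedom (biological coefficient of variation 14.4%). Called means an adjusted p under 0.05 by Benjamini-Hochberg across the 15566 genes, and every adjusted p is from this test unless another tool is named. SE values derive from the F statistic. Levels are CPM on TMM-adjusted library sizes, as mean ± SD of 4 libraries. At these totals, 3 counts summed over a group equal 0.0249 to 0.0284 CPM. The pipeline was tested on simulated data.

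Identifiers were matched to GENCODE 29 (56898 of 57500, all 40 matrix genes). The matrix genes, the other lists and the tests were chosen with earlier results of these data known. Every library is given for the called genes of largest change whose mean reached 1 CPM, 10 for the shAKAP2 doxycycline effect, 6 for the interaction and 4 for each other contrast, and for other genes where a sentence turns on them. From each other list up to 3 called genes with the smallest p were named. Alternatives were RLE and upper-quartile scaling, no low-count filter (at least 1 count), DESeq2 1.42.0, limma-voom (limma 3.58.1), a fit of the compared groups only, a replicate block, and leaving out each library or both shScramble replicate 1 libraries.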

Additional observations from a re-analysis of the deposited data

Results flagged for a closer look

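In 14 of 140 combinations of a matrix gene and a group, 1 library lay apart from the other 3, its gap to the nearest, as a share of the group's range, being over Dixon's 95% critical value, where chance flags about 1 in 20 groups. In untreated shScramble replicate 1, FN1 stood at 475 CPM (others 99.4 to 153), LUM at 3.65 (0.932 to 1.29) and LOX at 109 (51.6 to 59.5). In treated shScramble replicate 1, MATN2 was at 129.9 CPM (others 91.8 to 95.5), LUM at 7.56 (2.23 to 2.38) and LOX at 115 (61.9 to 70.9). In induced shAKAP2 replicate 1, TNC was at 12.8 CPM (others 7.15 to 7.91) and FBN1 at 13.1 (9.25 to 9.81). DCN had its only count of that group in replicate 4, at 0.0366 CPM, where 1 count beside 3 libraries at 0 passes the criterion by construction. LOXL2 was at 206 CPM in replicate 3 (others 219.9 to 222). In untreated shAKAP2 cells, MFGE8 was at 48.4 CPM in replicate 2 (others 53.8 to 54.8), EFEMP1 at 72.0 in replicate 3 (84.3 to 84.7), LOXL4 at 47.8 in replicate 4 (36.8 to 37.9) and CSPG4 at 3.77 in replicate 1 (2.57 to 2.70).

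The doxycycline effect differed between the lines by the interaction test for 14 genes, with log2 differences of -7.87 for DCN, -3.85 for FBLN5, -2.58 for NID1, -2.27 for TNC, -1.39 for THBS2, -1.35 for MATN2, -1.34 for SPARC, -1.24 for GPC6, -1.05 for CSPG4, -1.04 for LOXL4, -0.99 for FBLN1, -0.89 for FBN1, -0.39 for LOXL2 and 0.39 for FSTL1.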

How the results depend on the processing

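The number of matrix genes called was 17, 2, 14, 20 and 16 in the order of the report (doxycycline in shAKAP2, in shScramble, the interaction, and the lines with and without doxycycline). Leaving out 1 library at a time gave 12 to 21, 1 to 10, 11 to 14, 19 to 21 and 9 to 18. In shScramble cells the 2 calls became 5 with DESeq2, 0 when only the 2 groups compared were fitted, and 12 without both replicate 1 libraries. Except for the fit without both replicate 1 libraries, shares of all genes are not given for these fits. A general change in calls therefore cannot be told apart from a change in the matrix genes. Between untreated lines the 16 became 9 with no low-count filter, 8 of the 16 and FBN2, which is tested only there (80 counts over all libraries, adjusted p = 0.0463); FBLN2 (84 counts) is likewise called there for the interaction and between treated lines (0.0489 and 0.0256). Under every alternative 10 of the 17, 0 of the 2, 10 of the 14, 19 of the 20 and 8 of the 16 calls were kept. Without both shScramble replicate 1 libraries 2 differences that had not passed changed sign and passed: LOX between treated lines, from -0.07 to 0.18 (log2, adjusted p = 0.0383), and FN1 between untreated lines, from -0.17 to 0.62 (adjusted p = 0.0335). The cause was not tested.

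With a replicate block the counts were 20, 2, 14, 20 and 15; in the interaction NID1 was lost and LOX gained. The numbers were not shown to pair the samples: correlations of same-numbered deviations ran from -0.0996 to 0.4 over the pairs of groups, and within shScramble 2 of 4 libraries, within shAKAP2 3 of 4, correlated best with their own number. Depth limits the sparse genes, since 3 counts over a group correspond to at most 0.0284 CPM.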

Other observations

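Of 10 tested genes for latent TGF-beta binding, TGF-beta ligands and CCN proteins, which are secreted regulators stored in or signalling from the matrix, 3 rose and 3 fell in shAKAP2 cells with doxycycline (median log2 fold change 0.05), against 13.1% of all genes higher and 15.2% lower. LTBP1, which anchors latent TGF-beta to fibrillin, fell (log2 -1.27, SE 0.134, adjusted p = 4.11e-07 by edgeR's quasi-likelihood test), while the CCN genes CYR61 (log2 0.74, SE 0.0679, adjusted p = 5.83e-08) and CTGF (log2 0.70, SE 0.144, adjusted p = 0.00136) rose. In shScramble cells CYR61 was the called gene of the list (log2 0.36, SE 0.0676, adjusted p = 0.00709). Of 10 tested genes for hyaluronan synthesis, turnover and binding, 2 rose and none fell in shAKAP2 cells (median 0.05), which is near those shares: TMEM2, a cell surface hyaluronidase (log2 0.57, SE 0.0831, adjusted p = 2.89e-05), and HYAL3 (log2 1.28, SE 0.200, adjusted p = 5.96e-05). Between the untreated lines CEMIP, which binds and degrades hyaluronan, was lower in shAKAP2 cells (log2 -1.52, SE 0.275, adjusted p = 0.00241).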
